A study of Homo sapiens with 12 samples.

Results

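A set of 10 Kruppel-like factor genes was examined for occupancy by hnRNPK in HCT116 cells, namely KLF2, KLF3, KLF4, KLF5, KLF6, KLF9, KLF10, KLF11, KLF13 and KLF16. They are 10 of the 20033 protein-coding genes compared, and they were selected with the peak calls at KLF6 and its relatives already known, so peak presence and rank are given as a description with no test. A gene was counted as carrying a peak when a called hnRNPK peak overlapped the gene record or the 5 kb in front of its transcription start site (TSS). Of the 10 genes, 4 carried at least 1 peak (KLF6, KLF2, KLF10 and KLF16), with 9 peaks between them, and 6 carried none. By the same rule 28.2% of all protein-coding genes carried a peak in at least 1 list.

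Chromatin immunoprecipitation and sequencing (ChIP-seq) was performed with an antibody against hnRNPK in HCT116, an established human colorectal carcinoma line. The 3 groups were CRLM1-OE, which overexpressed the long noncoding RNA (lncRNA) CRLM1, empty control and antisense control. Per the study, the cells of the CRLM1-OE and control conditions also overexpressed hnRNPK. Its supplementary methods name an antisense group for the peak calling, but hnRNPK overexpression is not stated for that group. CRLM1 was expressed, per the study's methods, from a lentiviral vector with puromycin selection, and whether a culture was 1 clone is not given in the sources used here. The 12 samples were 6 immunoprecipitated and 6 input libraries, 2 replicates per group, and each of the 6 peak lists was called from 1 immunoprecipitated library against the input of its own group and number.

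Kruppel-like factors are zinc-finger transcription factors that bind GC boxes and the related CACCC box, and they share this DNA preference with the SP family. They activate or repress genes of growth arrest, differentiation and metabolism, and KLF6 and KLF4 are known as growth-restraining factors in the intestinal epithelium, where KLF5 is known to favour proliferation. hnRNPK is an RNA-binding protein with KH domains that also binds single-stranded DNA, with a preference for runs of C, and it is a known activator at the CT element of the MYC promoter.

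The highest-ranking peaks lay just upstream of KLF6. The best peaks of the 3 lists that had a peak there shared an interval of 711 bp, chr10:3785613-3786323 (hg38), that lay 332 to 1042 bp upstream of the KLF6 TSS. The middle of this interval is printed because it is where those peaks met. It is chr10:3785818-3786117, plus strand, 537 to 836 bp upstream, and capitals mark runs of 4 or more C on the printed strand:
KLF6 shared interval: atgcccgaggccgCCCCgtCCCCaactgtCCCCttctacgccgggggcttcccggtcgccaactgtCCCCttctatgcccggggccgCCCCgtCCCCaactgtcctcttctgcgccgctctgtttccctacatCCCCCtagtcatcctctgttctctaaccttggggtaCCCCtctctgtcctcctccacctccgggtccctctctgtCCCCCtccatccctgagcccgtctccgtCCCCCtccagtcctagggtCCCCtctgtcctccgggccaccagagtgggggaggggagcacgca

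The printed strand is opposite to that of KLF6, which is transcribed from the minus strand, and the stretch lies in an intron of a divergent lncRNA. It held 11 runs of C on the printed strand and 5 on the other. The upstream sequences of 4 of the genes follow from RefSeq (GRCh38.p14), each on the strand of its gene, ending at the base before the TSS and with the same capitals. KLF6 and KLF2 are shown as genes with a peak at the start, KLF13 as a GC-rich gene without a peak and KLF9 as an AT-rich one without a peak.
KLF6, chr10:3785282-3785459, minus strand: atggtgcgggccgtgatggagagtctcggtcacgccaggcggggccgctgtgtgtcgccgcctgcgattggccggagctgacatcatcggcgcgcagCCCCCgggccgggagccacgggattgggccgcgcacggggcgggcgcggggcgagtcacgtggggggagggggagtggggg
KLF2, chr19:16324576-16324825, plus strand: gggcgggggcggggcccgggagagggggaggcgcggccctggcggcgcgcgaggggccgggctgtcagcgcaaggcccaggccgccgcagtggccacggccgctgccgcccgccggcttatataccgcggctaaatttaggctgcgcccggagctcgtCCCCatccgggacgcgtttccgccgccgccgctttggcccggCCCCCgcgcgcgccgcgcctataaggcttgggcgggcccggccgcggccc
KLF13, chr15:31326585-31326834, plus strand: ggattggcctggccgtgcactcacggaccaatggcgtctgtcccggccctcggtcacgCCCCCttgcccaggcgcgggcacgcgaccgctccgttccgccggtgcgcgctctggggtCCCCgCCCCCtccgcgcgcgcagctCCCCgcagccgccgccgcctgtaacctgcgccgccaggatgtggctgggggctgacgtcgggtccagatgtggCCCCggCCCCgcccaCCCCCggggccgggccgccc
KLF9, chr9:70414658-70414907, minus strand: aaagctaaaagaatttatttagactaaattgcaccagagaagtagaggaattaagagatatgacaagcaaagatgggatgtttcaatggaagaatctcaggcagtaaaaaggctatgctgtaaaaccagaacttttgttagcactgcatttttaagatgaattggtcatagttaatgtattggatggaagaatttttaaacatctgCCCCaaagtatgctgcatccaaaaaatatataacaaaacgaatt

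The 6 lists differed in length before any gene was considered. The CRLM1-OE lists held 4339 and 3163 peaks on chromosomes 1 to 22, X and Y, against 1619 and 2607 for empty control, 2262 and 2224 for antisense control. Peak widths did not follow the groups. CRLM1-OE replicate 1 and empty control replicate 2 had median widths of 506 and 516 bp, against 662 to 747 bp in the other 4 lists. No read counts accompanied the lists, so the depth of the libraries is unknown, and an absent peak means that none was called and not that hnRNPK was absent. At LINC01767, the gene of CRLM1, 2 peaks were called in CRLM1-OE replicate 2, the better at rank 21, and none in the other 5 lists. A ChIP peak list does not measure the RNA, so this is no check of the CRLM1 labels. Since the lists also differed in how many genes of any kind they touched, each count of Kruppel-like factor genes is set beside the share of all protein-coding genes. The part of list length, depth or peak width in the counts was not tested.

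KLF6 encodes an activator of growth-arrest genes such as CDKN1A, and its gene (ENSG00000067082.15, chr10:3775996-3785281, minus strand) had 5 peaks in 3 of the 6 lists. In CRLM1-OE replicate 1 the best of these, chr10:3785295-3786882, was 1588 bp wide and scored 259.3, rank 22 of 4339 peaks. In CRLM1-OE replicate 2 the peak chr10:3785048-3787797 was 2750 bp wide and scored 199.46, rank 47 of 3163. In empty control replicate 2 the best peak, chr10:3785613-3786323, was 711 bp wide and scored 122.49, rank 109 of 2607. No peak was called there in empty control replicate 1 or in either antisense control list, where the nearest peak lay 276 kb, 331 kb and 1627 kb from the TSS.

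KLF6 thus stood within the upper 4.18% of each list that called it, at 0.507% and 1.49% in the CRLM1-OE lists and at 4.18% in empty control replicate 2. The controls split, since the empty control replicates did not share the call. Without empty control replicate 2, KLF6 had a peak in no control list. Against the median score of its own list, the best KLF6 score was 4.59 and 3.46 times higher in CRLM1-OE and 2.14 times in empty control replicate 2. Scores of different lists are not on a common scale when depth is unknown, so these ratios order the peaks only within each list. When unplaced and alternate sequences were ranked too, the peak of CRLM1-OE replicate 1 moved from rank 22 to 37 and that of empty control replicate 2 from 109 to 203.

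Among genes, the order of the lists was different. Ranked by the best peak of each gene, KLF6 was number 8 of the 2126 protein-coding genes with a peak in CRLM1-OE replicate 1, 66 of 1880 in CRLM1-OE replicate 2 and 16 of 1143 in empty control replicate 2. As a percentage of the genes with a peak this was 0.376%, 3.51% and 1.40%, so empty control replicate 2 lay between the CRLM1-OE replicates, and no order of the groups by KLF6 rank is read from these values. Among peaks that came within 1 kb of a protein-coding TSS, the KLF6 peak ranked 2 of 302, 16 of 433 and 4 of 104 in the same lists. It was therefore among the highest-scoring promoter peaks in empty control replicate 2 as well as in CRLM1-OE. KLF6 was selected for this pattern.

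**Figure D1:**
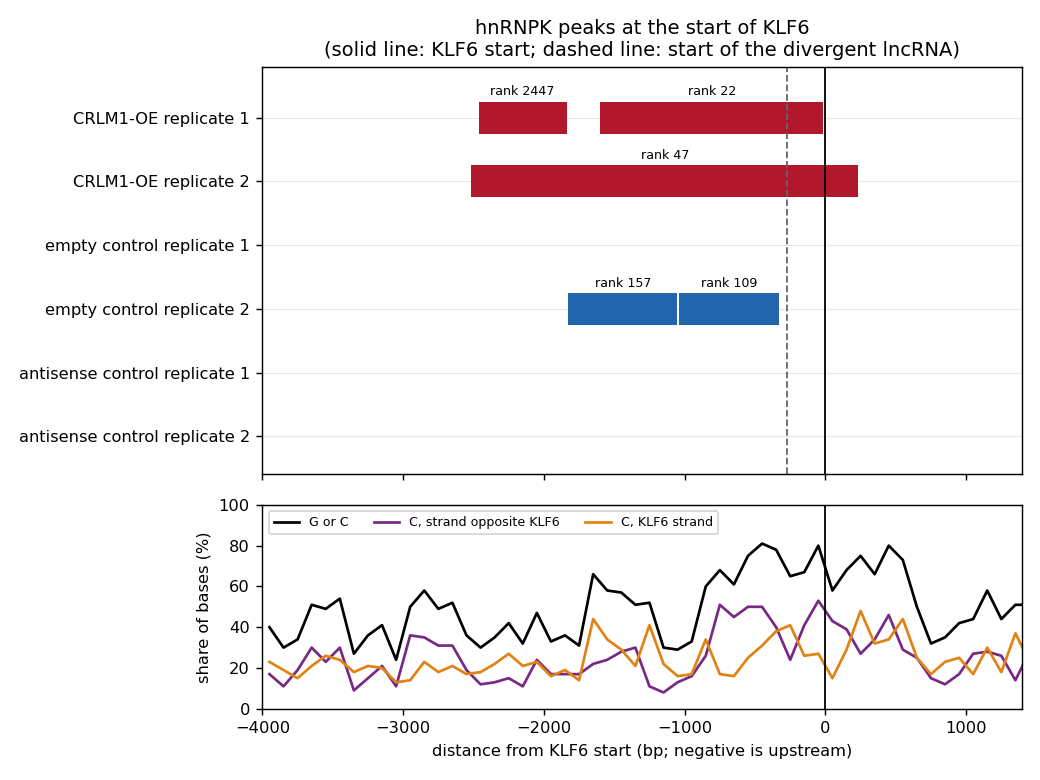
Peaks at the start of KLF6 in the 6 lists (bars, coloured by group, with the rank of each peak in its list) against distance from the TSS in bp, and below it the share of bases in bins of 100 bp that are G or C, or C on either strand. Peaks of 3 lists overlap from 332 to 1042 bp upstream, and the other 3 lists are empty there.

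The KLF6 peaks extended upstream, away from the gene. Their best midpoints lay 807 and 1141 bp upstream of the TSS in CRLM1-OE and 687 bp upstream in empty control replicate 2. The peak of CRLM1-OE replicate 1 stopped 14 bp short of the TSS, and that of empty control replicate 2 stopped 332 bp short. Only the peak of CRLM1-OE replicate 2 crossed the TSS, by 233 bp, and it covered 162 bp of 5' UTR in exon 1. No peak touched KLF6 coding sequence.

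The remaining KLF6 peaks were lower-scoring pieces of the same stretch. CRLM1-OE replicate 1 had a peak at chr10:3787120-3787744, rank 2447, separated from the better one by 237 bp, and empty control replicate 2 had one at chr10:3786333-3787107, rank 157, separated by 9 bp. Both lists with split peaks were the lists of narrow peaks. The wide peak of CRLM1-OE replicate 2 covered all bases of the peaks of the other 2 lists. The CRLM1-OE pair overlapped by 1588 bp, which was 100% of the best peak of replicate 1 and 57.7% of that of replicate 2. Summed over a list, KLF6 peaks spanned 2213 bp, 2750 bp and 1486 bp, and each sum was 4.37, 3.68 and 2.88 times the median width of its list.

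The upstream side of KLF6 is shared with a lncRNA gene, ENSG00000288755, transcribed in the opposite direction from a start 270 bp from that of KLF6. That start lay under the best peak in both CRLM1-OE lists and outside the peaks of empty control replicate 2, whose nearer edge was 62 bp beyond it. The peaks cannot be assigned to either of the 2 genes.

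KLF2, a flow-responsive factor that holds endothelial cells and T cells in a quiescent state, was called in CRLM1-OE replicates 1 and 2 but not in the controls, whose nearest peaks lay 53.3 to 1404 kb from its TSS. The gene (ENSG00000127528.6) lies at chr19:16324826-16328685 on the plus strand. In CRLM1-OE replicate 1 the peak chr19:16324244-16325125 scored 51.19, rank 3862 of 4339, and in replicate 2 the peak chr19:16324062-16325316 scored 54.9, rank 1984 of 3163. These were weak calls, near the lowest score in either list (50), at 89.0% and 62.7% of the way down the lists. Their position was the same in both. The midpoints lay 142 and 137 bp upstream of the TSS, both peaks spanned the TSS, and the narrower was contained in the wider (882 bp, 70.3% of the wider). Both touched the 5' UTR and 75 bp of coding sequence in exon 1, and the start of the divergent lncRNA KLF2-DT, 312 bp away, lay under both.

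KLF10, a TGF-beta-inducible repressor, had a peak in CRLM1-OE replicate 2 alone. Its gene (ENSG00000155090.15, chr8:102648784-102655725, minus strand) carried the peak chr8:102652794-102656503, which scored 80.47, rank 391 of 3163 or 12.4%. At 3710 bp this was the widest peak on any of the 10 genes, 4.97 times the median width of its list. It reached from 778 bp upstream of the TSS to 2931 bp downstream, with its midpoint in an intron, and took in 36 bp of coding sequence in exon 1. The other 5 lists had their nearest peak 116 to 854 kb from the KLF10 TSS, so the call was not shared by the other CRLM1-OE replicate.

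KLF16, a factor that competes with SP proteins for GC boxes, was touched far from its start. The peak in CRLM1-OE replicate 1, chr19:1853114-1853651, scored 52.21, rank 3428 of 4339 or 79.0%, and its midpoint lay 10197 bp downstream of the TSS in the 3' UTR of exon 2 (ENSG00000129911.9, chr19:1852399-1863579, minus strand). A lncRNA on the opposite strand, ENSG00000267125, overlaps it there. The gene carried no peak in CRLM1-OE replicate 2, where the nearest one lay 3901 bp beyond its 3' end, or in the control lists. Another peak of CRLM1-OE replicate 1, rank 2430, lay 9498 bp upstream of the TSS, outside the 5 kb limit.

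**Figure D2:**
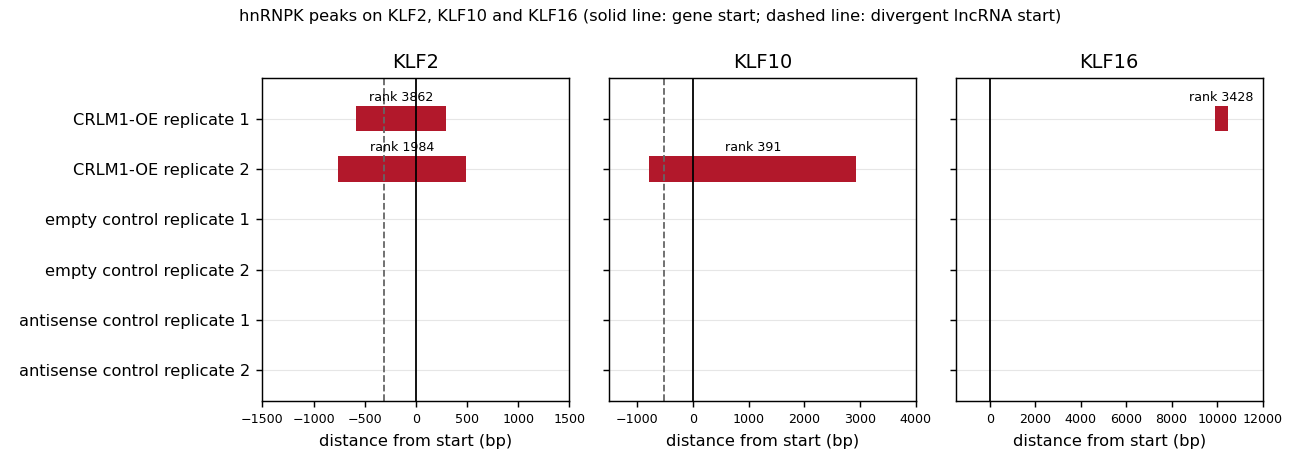
Peaks on KLF2, KLF10 and KLF16 by list (bars with the rank of each peak) against distance from the TSS in bp, negative upstream, with a dashed line at the start of the divergent lncRNA where there is one. All 4 peaks belong to CRLM1-OE lists, and those of KLF2 and KLF10 span the TSS while that of KLF16 lies 10197 bp downstream.

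No peak was called on 6 genes in any list. They were KLF3, a repressor that recruits CTBP proteins, KLF4, a pluripotency and epithelial differentiation factor, KLF5, KLF9, a glucocorticoid-induced factor of the BTEB type, KLF11, a TGF-beta-inducible repressor, and KLF13, a factor known from T cells. KLF9 came nearest to the rule. In CRLM1-OE replicate 1 a peak of rank 3255 of 4339 ended 5388 bp upstream of its TSS, 388 bp beyond the limit of 5 kb, whereas all KLF6 peaks lay within that limit. For the other 5 the nearest edge of any peak to the TSS over the 6 lists lay at least 25.5 kb away for KLF3 and for KLF11, 112 kb for KLF5, 133 kb for KLF4 and 1806 kb for KLF13. KLF13 is by length the largest of the 10 genes (108831 bp).

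**Figure D3:**
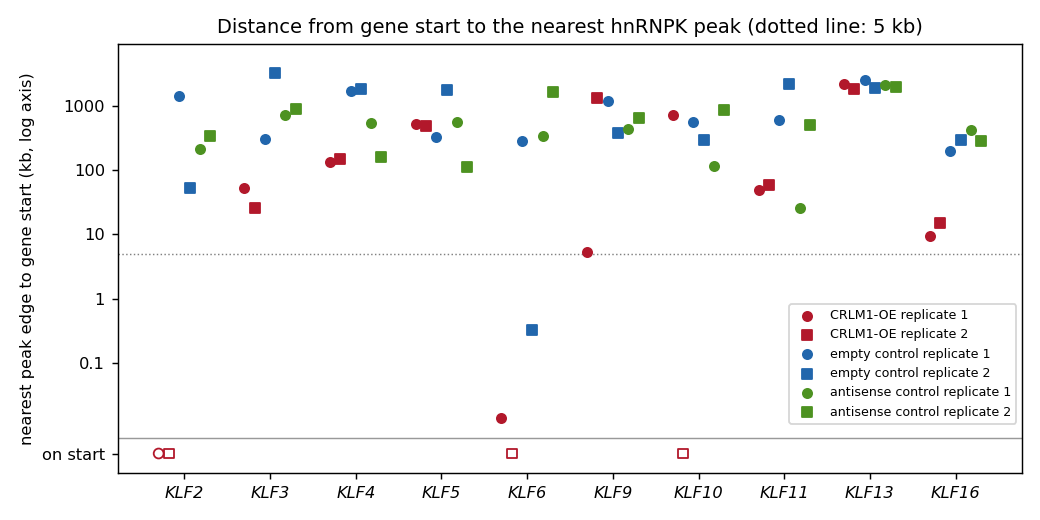
Distance in kb (log axis) from the TSS of each of the 10 genes to the edge of the nearest peak in each of the 6 lists, with peaks over the TSS on the lowest line and the 5 kb limit dotted. KLF2, KLF6 and KLF10 have peaks on the start in CRLM1-OE lists, and KLF9 has a peak at 5.388 kb, just outside the limit.

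Counted by list, 3 of the 10 genes carried a peak in CRLM1-OE replicate 1 (KLF2, KLF6 and KLF16), where 10.6% of all protein-coding genes did. In CRLM1-OE replicate 2 there were again 3 (KLF2, KLF6 and KLF10), beside 9.38% of all genes. In empty control replicate 1 there were 0, beside 3.5%, and in empty control replicate 2 there was 1, beside 5.71%. The antisense control lists had 0 in replicate 1, beside 5.7%, and 0 in replicate 2, beside 5.84%. Both CRLM1-OE counts thus exceeded all 4 control counts, and the shares of all genes were also highest in the CRLM1-OE lists. With 2 lists against 4, an exact permutation test with its one-sided p doubled cannot give a p below 0.133. No test was run on genes selected by their peaks.

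By group, 4 of the 10 genes carried a peak in either CRLM1-OE list (17.5% of all genes), 1 in either empty control list (8.54%) and 0 in either antisense control list (10.7%). Peaks in both CRLM1-OE lists were found on 2 of the 10, KLF2 and KLF6, beside 2.52% of all genes. A peak in at least 1 CRLM1-OE list without any in the controls was found for KLF2, KLF10 and KLF16, beside 11.4% of all genes. For KLF2 alone it was in both CRLM1-OE replicates, beside 1.05%. The pattern of KLF6, both CRLM1-OE lists and empty control replicate 2 with none in the other 3, was found in 0.28% of all genes. These counts rest on 10 genes that were selected with the calls known, so nothing is read from their distance to the background.

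The calls on these genes differed in strength. When only the 1000 highest-scoring peaks of each list were kept, or only peaks above the median score of their list, KLF6 and KLF10 kept a peak and KLF2 and KLF16 did not. Under either filter KLF6 alone of these genes kept a peak in both CRLM1-OE lists, and KLF10 alone had one in CRLM1-OE without one in the controls. The shares of all protein-coding genes under these filters were not computed, so nothing is read from these counts. The 1000 highest-scoring peaks are also a smaller part of CRLM1-OE replicate 1 (4339 peaks) than of empty control replicate 1 (1619 peaks).

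**Figure D4:**
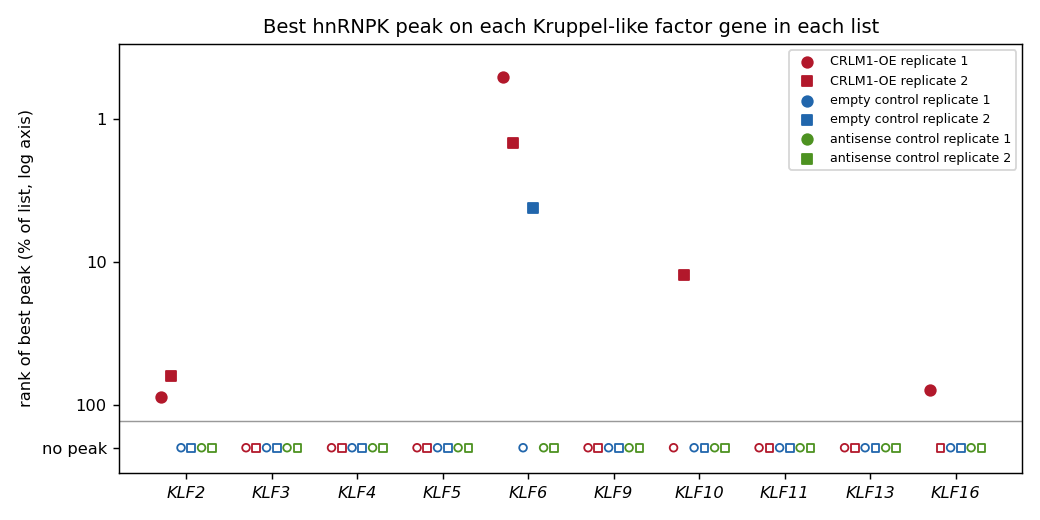
Rank of the best peak of each gene as a percentage of its list (log axis, best at the top) for the 10 genes, with filled symbols for lists that called a peak and open symbols in the lowest row for lists that did not. KLF6 lies between 0.507% and 4.18% in 3 lists, KLF10 at 12.4% in 1 list, and KLF2 and KLF16 between 62.7% and 89.0%.

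Distance to the TSS belonged to the rule by which the genes were described, and 5 of the 9 peaks are those of KLF6, so the values that follow are a description. Of the 9 peaks, 6 (66.7%) came within 1 kb of the TSS, on KLF2, KLF6 and KLF10, and the median distance of a midpoint from the TSS was 1077 bp. Over all 8394 peaks on protein-coding genes the share was 14.1% and the median distance 38593 bp. The share differed by list, at 13.3% and 24.0% in CRLM1-OE replicates 1 and 2, 4.28% and 7.98% in empty control, and 13.2% and 14.4% in antisense control. The 10 genes are short, with a median length of 11584.5 bp against 27471 bp for all protein-coding genes. By gene, 3 of the 10 had a peak within 1 kb of the TSS in at least 1 list beside 5.73% of all protein-coding genes, and the same 3 had one in a CRLM1-OE list beside 3.89%. KLF6 alone had one in an empty control list, beside 0.714%, and none of the 10 had one in an antisense control list, beside 1.67%. KLF2 and KLF6 had one in both CRLM1-OE lists, beside 0.349%.

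The peaks on these genes were rich in G and C. Their G+C share had a median of 62.1% (36.8% to 73.7%), against 41.9% over all 16214 peaks and 64.8% over the 1185 peaks near a protein-coding TSS, so it was close to that of peaks at gene starts in general. The KLF2 peaks were highest, at 73.7% and 70.0%, above 97.9% and 96.2% of the peaks of their lists. The best KLF6 peaks had 58.9%, 53.0% and 63.0%. The distal KLF6 peaks held less. That of CRLM1-OE replicate 1 had 36.8%, a lower share than the median of its list (43.3%). That of empty control replicate 2 had 47.5%, above the median of its list (43.9%). Averaged by list, the CRLM1-OE peaks on these genes held 60.0% ± 2.35 (SD, n = 2). These lists had peaks on partly different genes, so the SD is not a spread between replicates of the same quantity.

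Sequence under the KLF6 peaks was uneven between the strands. In the interval common to the 3 lists, 38.4% of plus-strand bases were C and 24.6% were G, and runs of 4 or more C (CCCC, each run counted once) numbered 18 on the plus strand and 8 on the minus strand. The printed window of 300 bases held 16 such runs on the 2 strands together, more than in 99.5% of windows of the same length at the midpoints of all peaks, in 96.3% of those at peaks near a protein-coding TSS and in 99.3% of RefSeq promoters. It also held the CT element (CCCTCC, either strand, which can overlap a run of C) 3 times, more than in 84.4% of the windows at gene starts. The GC box (GGGCGG, either strand) occurred 2 times and the CACCC box (CACCC, either strand) was not in this window. The window is the centre of the best peak of empty control replicate 2. The same kind of window at the best KLF6 peak held 9 runs of C and 3 CT elements in CRLM1-OE replicate 1, but 1 run and 0 CT elements in CRLM1-OE replicate 2, whose wide peak is centred farther upstream. The high count thus belongs to the shared interval and not to the centre of each KLF6 peak, and a match is a description of letters only.

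The promoters of the genes could be compared at equal length. RefSeq promoter entries, from 250 bases before to 50 after the start, matched 8 of the 10 genes with 10 entries, and KLF3 and KLF10 had no entry. Their G+C share was 86% for KLF16, 80.7% for KLF2 and 70.7% for KLF6, which carried peaks, and 78.3% for KLF13, 77.3% and 75.3% for KLF11, 71.3% and 40.7% for KLF5, 69% for KLF4 and 32.7% for KLF9, which did not. The entries of genes with peaks ran from 70.7% to 86% and those without from 32.7% to 78.3%, so the ranges overlapped in part, and the median of all 35116 promoters was 58.7%. In these entries of equal length KLF13, without a peak, held 10 runs of C on the 2 strands, as many as KLF6 and KLF16, and KLF2 held 8. Of all promoters, 89.6% held a run of C, 45.7% the CT element, 45.0% the GC box and 59.9% the CACCC box.

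Other genes of the pathway were counted by the same rule, beside the 28.2% of all protein-coding genes with a peak in at least 1 list. Of the 8 remaining Kruppel-like factor genes, KLF12 alone (12.5%) had a peak, at rank 1600 in CRLM1-OE replicate 2 and at ranks 574 and 1580 in empty control replicate 1. Of the 9 SP genes, which bind the same GC boxes, 3 (33.3%) had a peak. SP3 had a peak in CRLM1-OE replicate 2 (rank 1614), and SP1 and SP7 had one each in antisense control replicate 2 (ranks 1044 and 1477). The best rank among these genes was 574, that of KLF12.

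Of 15 co-regulators known to work with Kruppel-like factors or to control their stability, 4 (26.7%) carried a peak, a share near that of all genes. CTBP2, a corepressor bound by KLF3, had peaks close to its TSS in 3 lists, at rank 1925 in CRLM1-OE replicate 1, rank 331 in CRLM1-OE replicate 2 and rank 2180 in antisense control replicate 1. CREBBP, an acetyltransferase and coactivator, had peaks at ranks 428 and 1532 in CRLM1-OE replicate 1 and at rank 832 in antisense control replicate 2. FBXW7, a substrate receptor of a ubiquitin ligase that targets KLF5, was called at rank 3811 and rank 2026 in the CRLM1-OE lists, and WWP1, a ubiquitin ligase of KLF5, at rank 2939 in CRLM1-OE replicate 1. CTBP2 was called in both CRLM1-OE replicates and in a control, as KLF6 was, but the control was an antisense one.

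The genes whose ranks over the 6 lists were most like those of KLF6 were ARMH1, TTYH2, CACNA1G, CTIF and TBC1D16. Likeness was the mean absolute difference in rank percentage, with a list without a peak set to 100%. ARMH1 was closest at 0.596 percentage points, with ranks 33, 146 and, in empty control replicate 2, 114, and no peak in the other 3 lists. Its peaks lay 46.7 kb downstream of its TSS in CRLM1-OE replicate 1, not at the start. TTYH2 was next at 5.53 points, with ranks 24 and 50 in CRLM1-OE about 1 kb upstream of its TSS, rank 612 in empty control replicate 2 and rank 1951 in antisense control replicate 1. The other 3 differed from KLF6 by 5.91, 6.80 and 6.87 points.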

How the data were processed

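Peaks of hnRNPK ChIP-seq in HCT116 cells were read as deposited, 1 list for each immunoprecipitated library against its input, 6 lists in all. Per the study's methods and processing notes, the authors used cutadapt for trimming, Bowtie2 for alignment to GRCh38 and MACS2 for peak calling. Column 5 is a score given by the authors. Its lowest value was 50 or just above in every list, which on the scale of older MACS versions is a p-value of 1e-05, whereas the methods give a q-value limit, so the caller settings are not known. No read counts accompany the lists, and the precision that depth gives is unknown. No column of values was left unused (0).

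Of 16768 peaks, 16214 on chromosomes 1 to 22, X and Y were used. Peaks were ranked by score within a list, the best rank being given to ties. Genes came from GENCODE release 44, a gene's TSS being the 5' end of its record, and sequence from hg38. Coordinates count from 1. All 10 members were named, with every gene of the other lists that had a peak and the 5 genes most like KLF6. The members, lists and settings were chosen with earlier results of these data known. No test was run, because the members were selected by their peaks. Counting was checked on simulated peaks with known positions. Python 3.11.15, pandas 2.3.3, pysam 0.24.0 and samtools 1.23.1 were used. Alternatives changed the peaks used, the gene window, the TSS, ties and the overlap that counts as shared, and left out each list in turn.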

Additional observations from a re-analysis of the deposited data

How the results depend on the processing

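Of 57 alternative settings over 14 results, 12 moved the value. Reversals were not looked for, so no count of them is given. The other 45 left it within the tolerance used, 1.5 times the main value for counts and ranks (so a change from 3 to 2 or 4 genes is not counted as moved) and 1 SD over the 2 CRLM1-OE lists for distances and G+C shares. Some of these could not move. Leaving out a control list cannot change the number of genes with a peak in both CRLM1-OE lists. With 2 lists, the mean G+C share without either one always stays within 1 SD. Counts fell with peaks above the median score of their list, and equally with the 1000 highest-scoring peaks of each list. The mean number of genes with a peak over the 2 CRLM1-OE lists went from 3 to 1.5. The number with a peak in both CRLM1-OE lists went from 2 to 1, and the number in a CRLM1-OE list and no control list from 3 to 1. The shares of all protein-coding genes under these filters were not computed. With the gene body only, the mean of the empty control lists went from 0.5 to 0 and the number in both CRLM1-OE lists from 2 to 1, since KLF6 was called upstream in CRLM1-OE replicate 1 and empty control replicate 2. Leaving out each list in turn, the empty control mean ranged from 0 to 1, being 0 without replicate 2, the list with the KLF6 peaks. With all sequences ranked, KLF6 moved from rank 22 to 37 in CRLM1-OE replicate 1 and from 109 to 203 in empty control replicate 2.

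No paired analysis was possible because the results come from no test. Each group had 2 lists, and depth is unknown, so the part of list length and depth in the differences between groups cannot be told apart from that of the constructs, and a gene without a call is not shown to lack hnRNPK.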

Other observations

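A divergent lncRNA start within 1 kb upstream was found for 3 of the 10 genes, KLF6 (270 bp), KLF2 (312 bp) and KLF10 (516 bp), and for 7.23% of the 20033 protein-coding genes. These were the same 3 genes that had a peak within 1 kb of the TSS. The count was made after the peaks had been seen and was not tested. How often such a start and such a peak fall on the same gene over all protein-coding genes was not counted.

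The interval common to the KLF6 peaks holds repeated stretches. The longest that occurs more than once on the plus strand is 23 bases long, starts at 545 and at 619 bp upstream of the KLF6 TSS, and lies in the printed window both times.
Repeated stretch, runs of 4 or more C in capitals: ggccgCCCCgtCCCCaactgtcc
How reads from the copies were aligned, and the part of the repeat in the peak height, was not tested.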
